A study of Mus musculus with 4 samples.

Results

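The genes described here encode the CD3 chains of the T cell receptor (TCR) and the proteins that act first when the receptor is engaged: Cd3d, Cd3e, Cd3g, Cd247, Lck, Zap70, Lat, Lcp2 and Ptprc. They were chosen by symbol, and all 9 had a row among the 24768 genes of the table. The mouse libraries hold RNA of cDNT cells, where the labels give T cells as the source and leave the abbreviation unexplained, and fall into 2 libraries of cells labelled Tbx21-KO, which lack a working gene for T-bet by that label, a transcription factor of type 1 T cell and natural killer cell programmes, and 2 libraries of wild-type (WT) cells. The design text speaks of a knockdown of Tbx21 and the sample labels of a knockout, and the label Tbx21-KO is used. No agent, time, strain, age or Cre driver is given for either group, and no label says whether the libraries of a group came from separate animals or cultures, so p-values measure the spread between these libraries only, which may be technical. Of the 9 genes, 7 were classed as restricted largely to T cells and related lymphocytes, and Ptprc and Lcp2 as shared with myeloid cells. Whether other cells, such as mast cells or platelets, express any of the 7, among them Lat, was not tested.

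The TCR itself has no enzyme. Its signal passes through the CD3 gamma, delta and epsilon chains (Cd3g, Cd3d, Cd3e) and the zeta chain (Cd247), whose tails carry tyrosine motifs called ITAMs. The kinase Lck phosphorylates these motifs, the kinase ZAP-70 (Zap70) docks on them, and ZAP-70 then phosphorylates the adaptors LAT and SLP-76 (Lcp2), on which the enzymes of the calcium and Ras branches assemble. The phosphatase CD45 (Ptprc) removes the inhibitory phosphate from the tail of Lck, and the kinase Csk adds it.

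The 3 CD3 genes lie side by side within 40056 bp of mouse chromosome 9, and Cd3d and Cd3g are transcribed away from each other from starts 1355 bp apart. Lck has a distal start and a proximal start. The 250 bases before these starts are shown because the 3 CD3 genes share a locus and differed in their change, and because Lck changed more than the other 8 genes. The sequences are RefSeq's for GRCm38.p6, read 5′ to 3′ on the strand of the gene. Capitals mark matches, on either strand, to the letters AGGAAG, a core bound by ETS factors, to TGTGGT, a core bound by RUNX factors, and to GGTGTG, the core of the T-box site. The full T-box letters AGGTGTGA, which contain that core, were searched as well.
Cd3e, chr9:45009612-45009861, minus strand: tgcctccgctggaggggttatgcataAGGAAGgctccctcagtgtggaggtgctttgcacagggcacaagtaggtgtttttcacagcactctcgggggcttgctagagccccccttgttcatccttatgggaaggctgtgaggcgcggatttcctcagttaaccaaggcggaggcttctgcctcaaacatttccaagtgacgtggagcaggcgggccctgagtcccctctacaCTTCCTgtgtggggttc
Cd3d, chr9:44981536-44981785, plus strand: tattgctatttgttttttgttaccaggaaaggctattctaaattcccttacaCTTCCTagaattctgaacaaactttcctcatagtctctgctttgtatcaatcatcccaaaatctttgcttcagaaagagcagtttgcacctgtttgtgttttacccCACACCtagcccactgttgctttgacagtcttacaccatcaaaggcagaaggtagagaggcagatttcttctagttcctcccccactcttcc
Cd3g, chr9:44980432-44980681, minus strand: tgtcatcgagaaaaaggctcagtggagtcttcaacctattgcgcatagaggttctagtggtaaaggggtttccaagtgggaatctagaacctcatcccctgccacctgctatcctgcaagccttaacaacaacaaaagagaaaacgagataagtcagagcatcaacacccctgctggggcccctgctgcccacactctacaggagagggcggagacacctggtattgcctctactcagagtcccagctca
Lck distal start, chr4:129573642-129573891, minus strand: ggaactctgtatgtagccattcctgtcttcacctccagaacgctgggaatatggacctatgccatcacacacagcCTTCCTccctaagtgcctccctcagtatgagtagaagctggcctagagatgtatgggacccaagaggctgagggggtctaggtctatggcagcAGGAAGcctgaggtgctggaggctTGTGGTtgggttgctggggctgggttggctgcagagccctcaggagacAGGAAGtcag
Lck proximal start, chr4:129558373-129558622, minus strand: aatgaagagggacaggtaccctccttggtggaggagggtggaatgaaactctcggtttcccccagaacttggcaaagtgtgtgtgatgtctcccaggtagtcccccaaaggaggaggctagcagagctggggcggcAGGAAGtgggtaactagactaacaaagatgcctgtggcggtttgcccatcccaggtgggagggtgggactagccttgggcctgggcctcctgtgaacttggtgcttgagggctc
RefSeq listed 13 start windows for the 9 genes. Cd3g and 1 Zap70 window held no match. The ETS letters were present in 11 of the 13, covering 8 of the 9 genes, and in 29.5% of all 32851 windows of this length. The 2 Ptprc windows overlap and share 1 of their matches. The core GGTGTG was present in 2 of the 13 windows, 1 of Cd3d and 1 of Zap70, and in 16.3% of all windows. The RUNX letters were in 2, 1 of Lck and 1 of Zap70, and in 14.0% of all windows. The Zap70 window with GGTGTG and that with the RUNX letters are the same window. The bases just after its start were found in no GENCODE M21 transcript of the gene. The full T-box letters were in 0 of the 13 and in 1.12% of all windows. Such matches describe letters only, and no binding data are used here.

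The values are FPKM (fragments per length of gene, scaled to the fragments of the library), which the authors computed. They imply 23342594 and 24032875 counted reads in the Tbx21-KO libraries and 24967022 and 24129882 in the WT libraries, so the 9 genes rest on 2812 to 48979 reads per library. Tbx21 was at 2.29 and 2.41 FPKM in Tbx21-KO cells and at 13.2 and 11.7 FPKM in WT cells, 18.8% of the WT mean. The T cell label held in every library: the CD3 and zeta genes and the TCR constant genes Trac, Trbc1 and Trbc2 ranged from 21.99 to 320.2 FPKM. In the same Tbx21-KO libraries, however, 12 of 12 granulocyte markers and 7 of 7 tested monocyte and macrophage markers were higher, beside 30.1% of all genes tested. The summed level of the granulocyte list was 10716 and 11022 FPKM in Tbx21-KO cells and 9.09 and 11.5 FPKM in WT cells, and that of the monocyte and macrophage list was 350.0 and 373.8 FPKM in Tbx21-KO cells and 44.8 and 48.7 FPKM in WT cells. None of these markers was at 0 in both WT libraries. Transcripts of myeloid markers were thus abundant in the Tbx21-KO libraries. In such bulk RNA, fewer T cells and less RNA per T cell cannot be told apart for any fall described here. The B cell list was at 75.8 and 72.0 FPKM in sum in Tbx21-KO cells and at 39.1 and 41.2 FPKM in WT cells, most of it from Ighm and Igkc, while Ms4a1 and Pax5 were under 1 FPKM in every library.

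Tbx21-KO cells were set against WT cells with limma on log2(FPKM + 1) in the 11013 genes with a mean of at least 1 FPKM, and a call needed a Benjamini-Hochberg adjusted p under 0.05 over all of these. Log2 fold changes subtract the WT mean from the Tbx21-KO mean on this scale, which understates the changes of weakly expressed genes. Of the 9 genes, all of which were tested, 6 were lower, none was higher and 3 were not called. Among all genes tested 53.1% were called, 23.0% as lower and 30.1% as higher. The 3 genes not called had log2 fold changes of -0.14 (Cd3g), -0.09 (Zap70) and 0.08 (Lat). With voom on the reads recovered from the FPKM, 7 were lower and none higher, where 59.2% of all genes were called, 25.2% as lower and 33.9% as higher. Their median log2 fold change was -0.39, against 0.04 over all genes tested. The FPKM of the groups did not overlap for any of the 9 genes, with 8 lower and Lat higher in both Tbx21-KO libraries. That was true of 79.0% of all genes tested, 35.3% as lower and 43.7% as higher, so it says little about the 9.

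**Figure D1:**
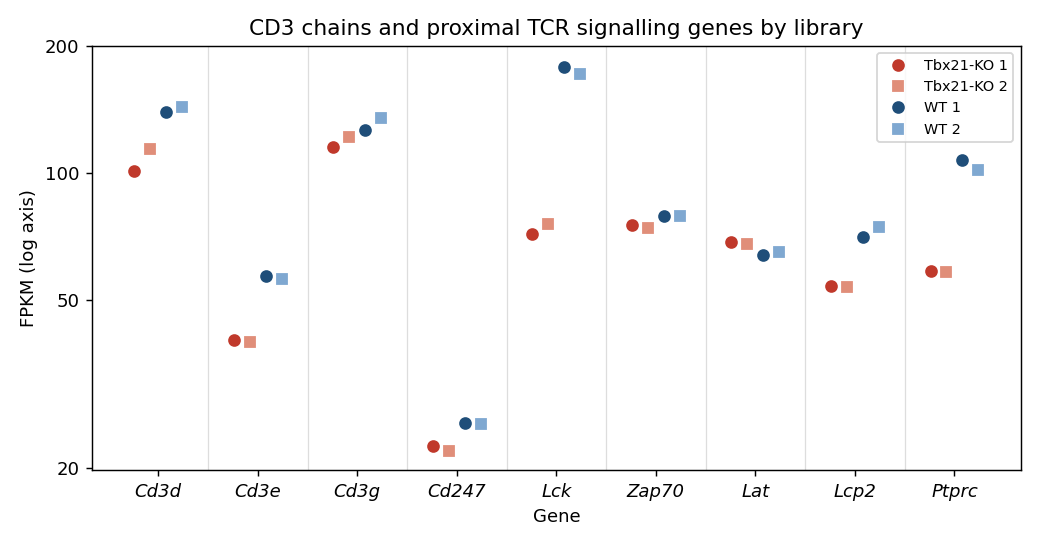
FPKM of each gene in each library on a log axis, with 1 point per library (Tbx21-KO 1 and 2 in reds, WT 1 and 2 in blues). Lck stands at 71.6 and 75.8 FPKM in Tbx21-KO cells, against 179 and 172 FPKM in WT cells, while Zap70 and Lat differ little between the groups.

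The CD3 chains were not lowered alike. Cd3e (ENSMUSG00000032093, GRCm38 chromosome 9, 44998740 to 45009627) encodes the epsilon chain, which pairs with the gamma chain and with the delta chain. It had 40.2 and 39.8 FPKM in Tbx21-KO cells, against 57.2 and 56.1 FPKM in WT cells. Both Tbx21-KO libraries lay well below both WT libraries, and the libraries within a group were close. Cd3e fell to 70.7% of its WT level (log2 fold change -0.49, SE 0.04, limma adjusted p = 0.000544). Cd3d (ENSMUSG00000032094, chromosome 9, 44981786 to 44987339), the delta chain, had 101.2 and 113.8 FPKM in Tbx21-KO cells, against 139.8 and 143.1 FPKM in WT cells. Its Tbx21-KO libraries differed from each other more than its WT libraries did, but both were below WT, and Cd3d fell to 76.0% of its WT level (log2 fold change -0.39, SE 0.06, limma adjusted p = 0.00672). Cd3g (ENSMUSG00000002033, chromosome 9, 44969572 to 44980431), the gamma chain, had 115.6 and 121.9 FPKM in Tbx21-KO cells, against 126.6 and 135.3 FPKM in WT cells. The upper Tbx21-KO library came close to the lower WT library, and the gene was not called (log2 fold change -0.14, SE 0.05, limma adjusted p = 0.0776). It was called lower under 5 alternatives, among them voom at -0.14, quantile normalization at -0.15, leaving out WT replicate 1 at -0.19 and median-of-ratios scaling at -0.25.

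Cd247 (ENSMUSG00000005763, chromosome 1, 165788681 to 165877277) encodes the zeta chain, which carries more ITAMs than any CD3 chain and joins the receptor last. It had 22.6 and 21.99 FPKM in Tbx21-KO cells, against 25.6 and 25.5 FPKM in WT cells. The shift was small but larger than the gap between libraries of a group, at 87.3% of its WT level (log2 fold change -0.19, SE 0.04, limma adjusted p = 0.0152). That call was lost without Tbx21-KO replicate 1, at -0.21 with an adjusted p of 0.0570, and without Tbx21-KO replicate 2, at -0.17 with an adjusted p of 0.0838 (limma). Among the 4 chains the zeta gene had the lowest level per length in all 4 libraries, Cd3e the next lowest, and Cd3d and Cd3g the highest. The order of the top pair differed: Cd3g was above Cd3d in both Tbx21-KO libraries, and Cd3d above Cd3g in both WT libraries. Cd3d made up 36.2% and 38.2% of the summed FPKM of the 4 chains in Tbx21-KO cells and 40.03% and 39.7% in WT cells, and Cd3g 41.3% and 41.0% in Tbx21-KO cells and 36.3% and 37.6% in WT cells. The 4 chains together held 0.0895% and 0.0911% of all FPKM in Tbx21-KO cells and 0.113% and 0.116% in WT cells.

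The kinases differed most. Lck (ENSMUSG00000000409, chromosome 4, 129548344 to 129573641), the Src family kinase that starts the cascade, had 71.6 and 75.8 FPKM in Tbx21-KO cells, against 179 and 172 FPKM in WT cells. The means were 73.7 ± 2.99 FPKM in Tbx21-KO cells and 175.1 ± 4.92 FPKM in WT cells (SD, n = 2 each), and no library of one group came near the other group. Lck fell to 42.1% of its WT level (log2 fold change -1.24, SE 0.05, limma adjusted p = 8.08e-05), which was the largest change among the 9 genes. By FPKM it ranked 661 and 621 of all 24768 genes in the Tbx21-KO libraries and 222 and 228 in the WT libraries. The values sum over the whole gene, so use of its distal and proximal starts, shown above, cannot be read from them. Zap70 (ENSMUSG00000026117, chromosome 1, 36761798 to 36782818), the next kinase in the cascade, had 75.3 and 74.0 FPKM in Tbx21-KO cells, against 79.3 and 79.2 FPKM in WT cells. The groups were close, and the difference was not called (log2 fold change -0.09, SE 0.04, limma adjusted p = 0.0984). With median-of-ratios scaling Zap70 was called lower, at -0.20. In Tbx21-KO cells Lck and Zap70 were at like levels per length, with a ratio of 0.951 and 1.03, whereas in WT cells Lck was above Zap70 with a ratio of 2.25 and 2.17.

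The adaptors went apart too. Lat (ENSMUSG00000030742, chromosome 7, 126363824 to 126369570), the membrane scaffold, had 68.6 and 67.8 FPKM in Tbx21-KO cells, against 64.2 and 65.0 FPKM in WT cells. It was the only 1 of the 9 genes whose Tbx21-KO libraries were above the WT libraries, and it was not called (log2 fold change 0.08, SE 0.04, limma adjusted p = 0.124). With median-of-ratios scaling its sign turned, to -0.033. Lcp2 (ENSMUSG00000002699, chromosome 11, 34046920 to 34092295) encodes SLP-76, the cytosolic partner of LAT that myeloid cells, mast cells and platelets use as well. It had 54.1 and 53.6 FPKM in Tbx21-KO cells, against 70.6 and 74.4 FPKM in WT cells. Both Tbx21-KO libraries were below both WT libraries, and Lcp2 fell to 74.3% of its WT level (log2 fold change -0.42, SE 0.04, limma adjusted p = 0.00140). On the other strand Lcp2 overlaps 4930469K13Rik, which was at 1.00 to 1.77 FPKM, and Cd247 overlaps Pou2f1, not analysed here. No source states whether counting used strand, and reads from such overlaps may be shared between the genes.

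Ptprc (ENSMUSG00000026395, chromosome 1, 138062861 to 138175708) encodes CD45, which all nucleated blood cells carry. It had 58.7 and 58.2 FPKM in Tbx21-KO cells, against 107.1 and 101.9 FPKM in WT cells. The means were 58.5 ± 0.32 FPKM in Tbx21-KO cells and 104.5 ± 3.72 FPKM in WT cells (SD, n = 2 each), so the Tbx21-KO libraries were nearly equal and far below both WT libraries. Ptprc fell to 55.9% of its WT level (log2 fold change -0.83, SE 0.04, limma adjusted p = 0.000177), next after Lck among the 9. The values sum all splice forms, so those of CD45 cannot be told apart.

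Ptprc and Lcp2, which myeloid cells share, were thus both lower in the libraries with the myeloid transcripts. Of the 7 T-restricted genes, 4 were lower and 3 were not called, with log2 fold changes from -1.24 to 0.08 and a median of -0.19. Among all genes tested 23.0% were lower and 30.1% higher. For each library the mean log2 FPKM of the 7 T-restricted genes minus that of Ptprc and Lcp2 was taken, a quantity that no rescaling of a library can move. It was 0.16 and 0.21 in Tbx21-KO cells and -0.10 and -0.09 in WT cells, a difference of 0.28 on the log2 scale. The mean of the T-restricted genes was therefore higher relative to the shared pair in Tbx21-KO cells than in WT cells. It did not hold for each gene, as Lck over Ptprc differed by -0.41. The difference of the mean was 0.48 against Ptprc alone and 0.07 against Lcp2 alone. Against Lcp2 alone the libraries stood at 0.22 and 0.27 in Tbx21-KO cells and at 0.20 and 0.14 in WT cells. Leaving out 1 of the 7 T-restricted genes at a time gave differences of 0.20 (without Lat) to 0.43 (without Lck) against the pair. With the median over the 7 genes in place of the mean the difference was 0.51. These values are given as descriptions, with no test.

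The direction of small changes depended on how the libraries were scaled. When each library was rescaled to 16 T-restricted genes outside the 9, the median of all genes moved by 0.25 on the log2 scale. Lck, Ptprc, Cd3e and Lcp2 were still lower, with log2 fold changes of -0.94, -0.53, -0.20 and -0.13 (limma adjusted p = 0.000125, 0.000637, 0.0125 and 0.0413). Lat, Zap70 and Cd3g were then called higher, at 0.37, 0.21 and 0.15 (limma adjusted p = 0.000984, 0.00855 and 0.0462). Cd3d and Cd247 were not called, at -0.10 and 0.10. With that scaling 4 of the 9 genes were lower and 3 higher, where 65.4% of all genes were called, 8.17% as lower and 57.2% as higher. With quantile normalization 7 were lower and none higher, where 56.7% of all genes were called, 34.5% as lower and 22.1% as higher. The 16 genes of the scaling themselves did not move together, with 9 lower and 6 higher on the deposited values, so it is no measure of the T cell share.

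**Figure D2:**
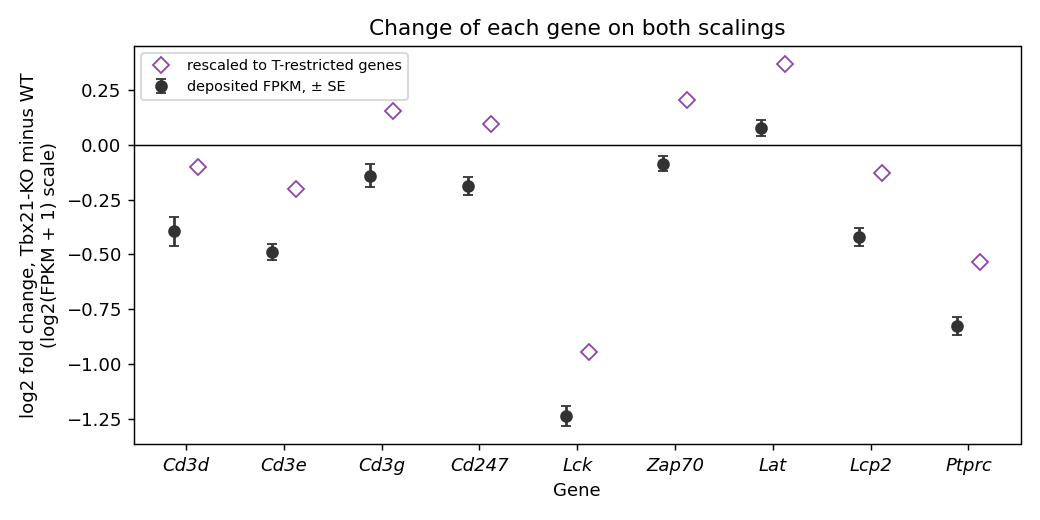
Log2 fold change of each gene in Tbx21-KO relative to WT cells, from log2(FPKM + 1) values. Filled points with bars are the deposited values ± SE from limma (2 libraries per group), and open diamonds are the values after rescaling to 16 T-restricted genes. Lck and Ptprc lie below 0 on both scalings, and Lat lies above 0 on both.

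Ratios within a library do not depend on scaling, and they show how the transcript levels of these genes differed relative to each other. The part of other cells in these bulk ratios was not tested, so they do not measure signalling within T cells. Relative to Cd3e, Lck was 1.78 and 1.90 in Tbx21-KO cells, against 3.12 and 3.06 in WT cells. Ptprc was 1.46 times Cd3e in both Tbx21-KO libraries, against 1.87 and 1.82 in WT cells. The opposite held for 4 genes. Lat was 1.71 and 1.70 times Cd3e in Tbx21-KO cells, against 1.12 and 1.16 in WT cells, and Zap70 was 1.87 and 1.86 times Cd3e in Tbx21-KO cells, against 1.39 and 1.41 in WT cells. Cd3g and Cd247 were also higher relative to Cd3e in Tbx21-KO cells, by 0.36 and 0.31 on the log2 scale. The ratio of Cd3d to Cd3e overlapped between the groups, and that of Lcp2 to Cd3e differed by 0.07, less than the gap of 0.10 between the WT libraries. The Lck transcript was also lower relative to that of Csk: the ratio was 1.24 and 1.28 in Tbx21-KO cells, against 2.81 and 2.83 in WT cells. Csk itself was not called, with a log2 fold change of -0.09.

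**Figure D3:**
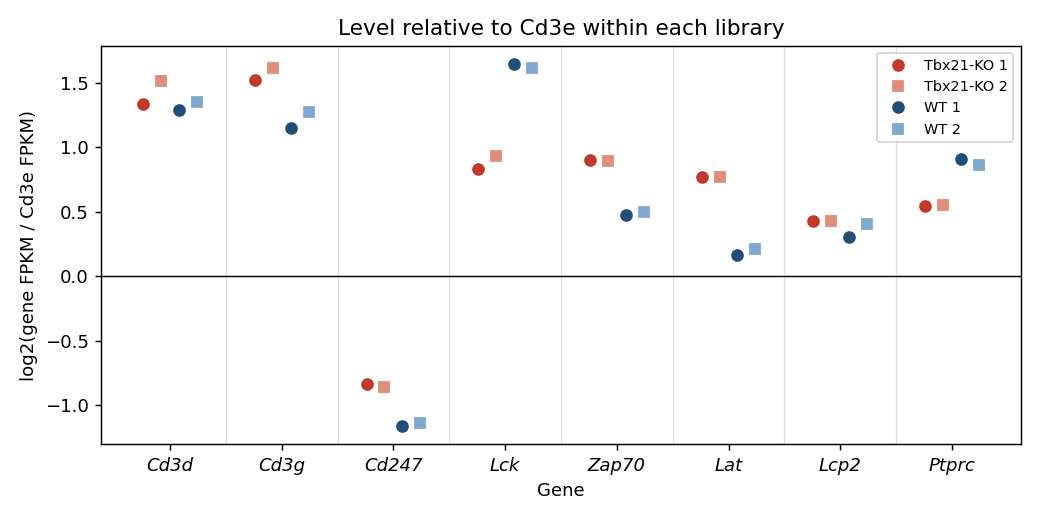
Log2 of the FPKM of each gene over that of Cd3e in the same library, with 1 point per library. The Lck and Ptprc points of Tbx21-KO cells lie below those of WT cells, those of Cd3g, Cd247, Zap70 and Lat lie above, and those of Cd3d overlap.

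The other genes of the pathway moved both ways. Lists of further proximal kinases, partners of LAT, the diacylglycerol and calcium branch and negative regulators held 56 genes, of which 54 had a row and were tested. Of these 21 were lower, 14 higher and 19 not called, with a median log2 fold change of -0.08, beside 23.0% lower and 30.1% higher among all genes tested. With the rescaling to T-restricted genes, which uses some of the same genes, 14 were lower and 30 higher, beside 8.17% and 57.2% among all genes. Fewer of them were called higher when either Tbx21-KO library was left out, and the same was true of all genes tested. The lists were written with earlier results of these data known.

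Among the other proximal kinases 2 were lower, 1 higher and 1 not called, and Fyn, the Src family relative of Lck in T cells, is not analysed here. Txk, a kinase of the Tec family, had 7.25 and 7.05 FPKM in Tbx21-KO cells, against 19.0 and 19.8 FPKM in WT cells, a log2 fold change of -1.32 (limma adjusted p = 7.10e-05). Tec itself rose by 0.65 on the log2 scale, to a mean of 15.1 FPKM in Tbx21-KO cells, against 9.29 FPKM in WT cells. Of 15 partners of LAT 5 were lower, 5 higher and 5 not called, beside 23.0% lower and 30.1% higher among all genes. Wipf1, a partner of the actin regulator WASP, and Sh2d2a, an adaptor that binds Lck, fell by 0.67 and 0.51 on the log2 scale. Nck2, an adaptor that binds the tail of CD3 epsilon, rose by 0.76, and Plcg1, the phospholipase that LAT recruits, rose by 0.31.

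Of 17 genes of the diacylglycerol and calcium branch 7 were lower, 3 higher and 7 not called. The shares among all genes tested were 23.0% lower and 30.1% higher. Prkcq, the protein kinase C of the T cell synapse, and the transcription factor gene Nfatc1 fell by 0.98 and 0.58 on the log2 scale. Orai1, the pore of the store-operated calcium channel, had 15.1 and 16.1 FPKM in Tbx21-KO cells, against 6.13 and 6.37 FPKM in WT cells, a log2 fold change of 1.19 (limma adjusted p = 0.000133). Itpr1, a receptor that releases stored calcium, rose by 0.92. Of 18 negative regulators with a row 7 were lower, 5 higher and 6 not called, beside the same shares among all genes. Lax1, a membrane adaptor related in build to LAT that dampens signalling, had 23.7 and 24.1 FPKM in Tbx21-KO cells, against 69.1 and 69.8 FPKM in WT cells, a log2 fold change of -1.50 (limma adjusted p = 2.62e-05). The inhibitory adaptor gene Dok2 fell by 0.90, while Sla, whose product promotes turnover of the receptor, and the inhibitory receptor gene Cd5 rose by 0.80 and 0.53. The call of Cd5 was lost without Tbx21-KO replicate 1, at 0.42.

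**Figure D4:**
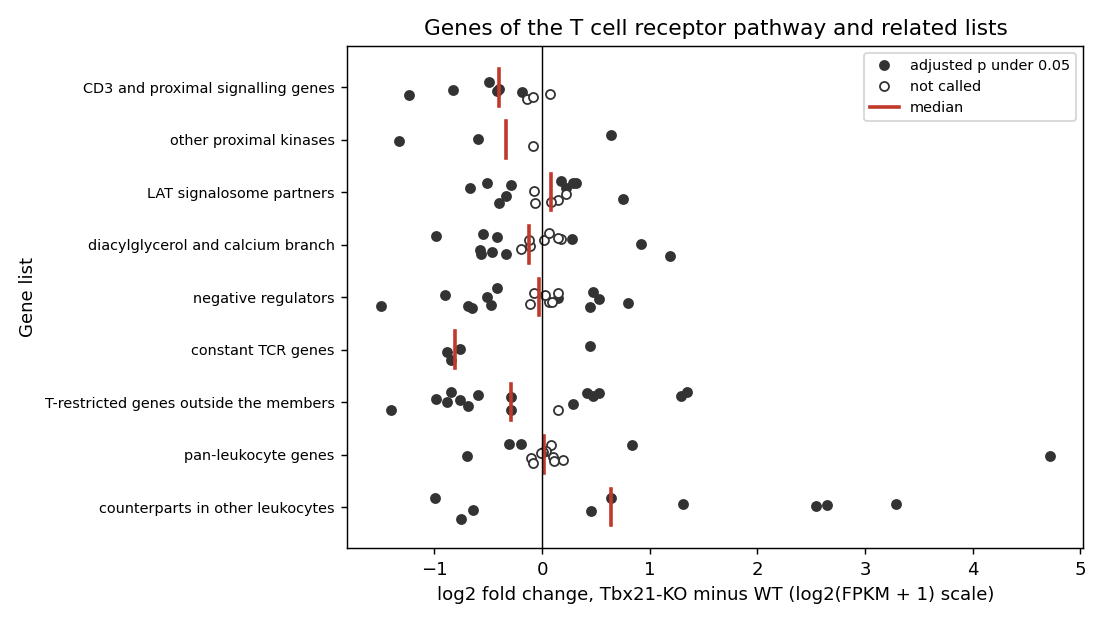
Log2 fold change of each tested gene in Tbx21-KO relative to WT cells, by list, from log2(FPKM + 1) values. Filled points have a limma adjusted p under 0.05, open points were not called and red bars are list medians. The 9 CD3 and proximal signalling genes run from -1.24 to 0.08, and the point at 4.72 on the pan-leukocyte list is Spi1, which most T cells lack.

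The receptor chains that CD3 accompanies changed unequally. Trac, the constant gene of the TCR alpha chain, had 72.3 and 78.4 FPKM in Tbx21-KO cells, against 140.3 and 138.4 FPKM in WT cells, a log2 fold change of -0.88 (limma adjusted p = 0.000267). Trbc1 and Trbc2, near-identical beta chain genes whose reads can be split between them, had log2 fold changes of -0.85 and -0.76, both called lower, and the call of Trbc2 was lost without either Tbx21-KO library, with nearly the same fold change. Trdc, the constant gene of the delta chain, was higher, with 46.7 and 49.7 FPKM in Tbx21-KO cells, against 35.7 and 34.5 FPKM in WT cells, a log2 fold change of 0.45 (limma adjusted p = 0.00179). Trac was thus at 1.80 and 1.97 times Cd3e in Tbx21-KO cells, against 2.46 and 2.47 times in WT cells. Of 16 T-restricted genes outside the 9, Cd28 and Prkcq fell most, by 1.41 and 0.98 on the log2 scale, and Trat1, a TCR-associated adaptor, and Icos, a costimulatory receptor, rose most, by 1.35 and 1.29.

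Myeloid and B cells use relatives of these proteins, and those relatives are shown beside their T cell counterparts. Of 9 such genes tested 6 were higher and 3 lower, beside 30.1% higher and 23.0% lower among all genes tested. Syk, the relative of Zap70, had 8.76 and 8.80 FPKM in Tbx21-KO cells, against 0.578 and 0.549 FPKM in WT cells, a log2 fold change of 2.65 (limma adjusted p = 2.87e-05). The ratio of Syk to Zap70 was 0.116 and 0.119 in Tbx21-KO cells, against 0.00728 and 0.00693 in WT cells. Btk, the Tec kinase of B cells and myeloid cells, had 10.4 and 9.90 FPKM in Tbx21-KO cells, against 0.229 and 0.0658 FPKM in WT cells. The Src family gene Lyn rose by 0.46 on the log2 scale. Lat2, the relative of Lat, went the other way, with 17.5 and 15.4 FPKM in Tbx21-KO cells, against 29.1 and 27.7 FPKM in WT cells (log2 fold change -0.76, limma adjusted p = 0.00115). Fcer1g, the Fc receptor gamma chain, which resembles zeta, had 94.2 and 96.4 FPKM in Tbx21-KO cells, against 179.5 and 203.6 FPKM in WT cells. It fell by 1.00 on the log2 scale, and Tyrobp rose by 1.31. The ratio of Fcer1g to Cd247 was 4.17 and 4.38 in Tbx21-KO cells, against 7.02 and 7.99 in WT cells. Lat2 and Fcer1g were thus both expressed in the WT libraries, which held few granulocyte transcripts. Blnk, the relative of Lcp2, was at 0.243 and 0.278 FPKM in Tbx21-KO cells and 0.107 and 0.0899 FPKM in WT cells and was not tested.

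**Figure D5:**
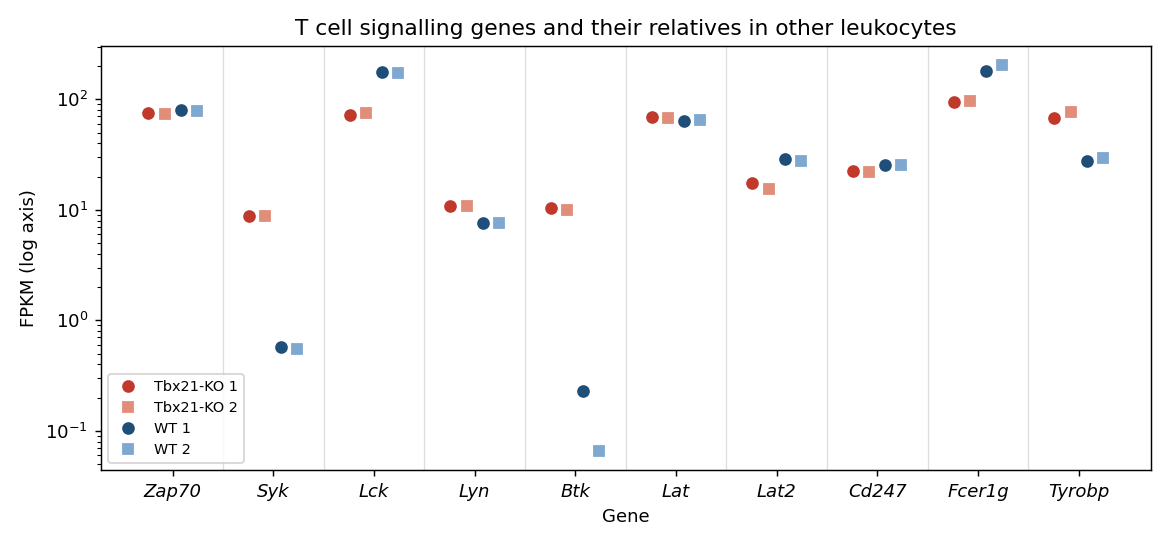
FPKM on a log axis, with 1 point per library, of T cell signalling genes and of the genes that do a like job in other leukocytes. Syk and Btk stand far higher in Tbx21-KO than in WT libraries, while Lat2 and Fcer1g stand lower.

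Of 14 other genes listed as pan-leukocyte, 3 were lower, 2 higher and 9 not called, with a median log2 fold change of 0.02. Among all genes 23.0% were lower and 30.1% higher. The largest falls were those of Cd48 and Lcp1, by 0.70 and 0.31, and the rises were those of Cd44, by 0.84, and Spi1, by 4.72. Spi1 encodes PU.1, a factor of myeloid and B cells that most T cells lack, so its rise is not that of a gene shared with T cells. It was at 34.2 and 33.1 FPKM in Tbx21-KO cells, against 0.253 and 0.384 FPKM in WT cells. Beside these stand the most abundant markers of the other cell types in Tbx21-KO cells. S100a9 and Ngp of granulocytes rose by 10.21 and 10.48 on the log2 scale, Lyz2 and Fcgr3 of monocytes and macrophages by 5.62 and 2.09, Cd74 and Batf3 of dendritic cells by 1.34 and 1.82, and Igkc and Ighm of B cells by 2.32 and 0.16. Of the 6 dendritic cell markers tested, 4 were higher and 2 not called, namely Xcr1 at -0.29 and Itgax at -0.22, while Flt3, Zbtb46 and Clec9a were under 1 FPKM in every library. The call of Ighm was lost under 5 alternatives, among them leaving out WT replicate 1 or either Tbx21-KO library. The part of other cells in the values of the 9 genes was not tested.

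The genes whose profile over the 4 libraries lay closest to that of a member were named from 11004 other tested genes, by the smallest root mean square difference of centred log2(FPKM + 1). For Cd3e these were Bin1, Sco1 and Srgap3, at differences of 0.0072, 0.0080 and 0.0089 and log2 fold changes of -0.49, -0.49 and -0.48. For Lck they were Ifi206, Gimap7 and Epsti1, at 0.013, 0.018 and 0.024, with log2 fold changes from -1.25 to -1.23. For Ptprc they were Exoc3l, Smap2 and Plek, at 0.0044, 0.010 and 0.014, with log2 fold changes from -0.85 to -0.82. With 4 libraries this likeness says little more than that the fold change and the small gaps between libraries were close.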

How the data were processed

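RNA sequencing of 2 Tbx21-KO and 2 WT libraries was analysed. The deposited table gives FPKM values, computed by the authors. Per the submitters' processing notes the build was GRCm38, also called mm10. The sources used here name no aligner, counter or strand setting. A last row that breaks off was left out, leaving 24768 genes, of which 24720 matched the GENCODE M21 annotation (GRCm38). With its summed exon lengths, 96.8% to 97.3% of values under 20 reads were whole within 0.1 read, which gave the read totals. Genes averaging 1 FPKM or more over the 4 libraries were tested with limma 3.58.1 (R 4.3.3; intensity trend) on log2(FPKM + 1), a pseudocount of 1, with Benjamini-Hochberg adjustment over 11013 genes. The steps were also run on simulated data built from the WT means, in which few genes changed, as many up as down. That simulation held no large rise of other transcripts in 1 group, so it does not test the scaling of these libraries. The median chi-square per gene between libraries of a group was 1.31 for Tbx21-KO and 1.44 for WT, against 0.455 from counting alone. Named from each pathway list were the 2 largest rises and 2 largest falls called, the relatives of members, and the 2 most abundant markers of each other cell type; Trbc2, Lyn and Tyrobp were added after their values were seen. Members, lists and alternatives were chosen with earlier results of these data known. A few symbols had no matching row and are not analysed here, and some listed genes are counted but not reported singly.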

Additional observations from a re-analysis of the deposited data

How the results depend on the processing

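Lck, Ptprc, Cd3e and Lcp2 were called lower under all 15 alternatives. Between 4 and 8 members were lower and none higher, except with scaling to T-restricted genes, where 3 were higher. With that scaling 4 members were lower, beside 8.17% of all genes lower and 57.2% higher. The 8 came from median-of-ratios scaling, which moved the median log2 fold change of all genes from 0.04 to -0.06. More of all genes were also called lower with that scaling than on the deposited values. Among alternatives that kept all 4 libraries, 900 to 3801 of all genes were lower. The member counts thus cannot be read apart from this background. Scaling to T-restricted genes turned Cd3g to 0.15, Cd247 to 0.10, Zap70 to 0.21, Csk to 0.21, Atp5l to 0.17 and Mpzl3 to 0.14. Median-of-ratios scaling turned Lat to -0.033. Leaving out a library gave Mpzl3 values from -0.17 to 0.043. Higher pathway genes numbered 30 with scaling to T-restricted genes, 9 with median-of-ratios scaling and 9 to 12 when 1 library was left out. Over all genes, scaling to T-restricted genes gave 900 lower and 6302 higher, quantile normalization 3801 lower, and a mean FPKM of at least 5 left 2018 higher. The causes were not tested beyond the construction of each setting. The T-restricted members against Ptprc and Lcp2 gave 0.51 with the median; leaving out single members from it was chosen after seeing the data. With the replicate block, 7 members were lower, the addition being Cd3g (limma adjusted p = 0.0367). Over all genes slightly fewer were called with it than on the deposited values, both as lower and as higher. The correlation of same-numbered deviations over genes was -0.0247, so the numbers were not taken to pair the libraries. Libraries left out leave 1 sample in a group, assumed to vary like the other group. Counting intervals of the libraries of a group overlapped in both groups for Cd3e, Cd247, Zap70 and Lat, so the gaps between those libraries cannot be told from counting error.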

Other observations

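The neighbours of the CD3 genes were looked at for their position, after the values of the CD3 genes were known. Within 100 kb of the CD3 genes on chromosome 9, 5 other genes were tested, of which 3 were lower, none was higher and 2 were not called, beside 23.0% lower and 30.1% higher among all genes tested. Jaml, which encodes a junctional adhesion molecule of gamma delta T cells and other leukocytes, had 9.81 and 9.76 FPKM in Tbx21-KO cells, against 30.9 and 29.6 FPKM in WT cells, a log2 fold change of -1.53 (limma adjusted p = 3.80e-05). That fall was larger than those of all 3 CD3 genes. Ube4a, a ubiquitin ligase gene, fell by 0.34 on the log2 scale, a call lost with scaling to T-restricted genes, at -0.08. Gm30934, an antisense gene, was lower by 0.49 at 0.715 to 1.83 FPKM, a call lost under 8 alternatives. Atp5l and Mpzl3 both had a log2 fold change of -0.06 and were not called.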
